A study of Mus musculus with 15 samples.

Results

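The chaperone genes of the mouse oocyte described here were chosen by name: a gene was a member if it had a probe set annotated with exactly 1 symbol, and that symbol began with Hspa, Hspb, Hspd, Hspe, Hsph, Hsp90, Dnaja, Dnajb or Dnajc, matched Cct2 to Cct8, or was Tcp1, Hsf1, Hsf2 or Hsf4. This gave 84 genes with 204 probe sets, of 18193 genes named in the same way on the array. Where a gene had several probe sets, the one with the highest mean over the 15 arrays stood for it, and 31 members had only 1. The members were 14 genes of the HSP70 family, 2 of the HSP90 family, the 2 genes of the mitochondrial chaperonin, 10 genes matching the names of the cytosolic chaperonin TRiC, 4 Dnaja, 13 Dnajb and 27 Dnajc genes of the J-domain family, 8 small heat shock protein genes, 2 cofactors whose names begin with Hspb, and 2 heat shock factor genes. Hsp90ab1 and Hsf1 were not analysed here.

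Chaperones hold and fold other proteins. HSP70 binds unfolded stretches and needs J-domain proteins, which hand it clients and start its ATP cycle, and exchange factors, which let the client go; HSP90 acts on later folding steps, and the TRiC ring encloses newly made actin and tubulin. A fully grown oocyte with an intact germinal vesicle (GV) has largely stopped transcription, so its maturation to the metaphase II (MII) egg runs on stored messenger RNA, part of which is lost or loses its poly(A) tail on the way.

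Each of the 15 Affymetrix arrays was hybridised with RNA of 150 pooled oocytes from B6D2F1 females, an F1 hybrid mouse strain. MII oocytes matured in vitro came from d20 (prepubertal, 3 arrays), d26 (peripubertal, 3 arrays) and adult mice of 7-8 wk (2 arrays), MII oocytes matured in vivo from d26 (2 arrays) and adult mice (3 arrays), and GV oocytes from adult mice (2 arrays). All females had received PMSG, a hormone that makes follicles grow; GV oocytes were taken after 48 h and kept for 16 h in Gmat medium where they were matured in vitro, while the in vivo groups received hCG to induce ovulation, and cumulus cells were stripped from all of them with hyaluronidase. Nothing in the labels says whether the pools of a group came from separate animals, so p-values measure the spread between these pools, which may be technical. RNA was captured by its poly(A) tail and measured per pool, so fewer intact oocytes, less RNA per oocyte and shorter poly(A) tails cannot be told apart in these values.

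Values below are log2 intensities after quantile normalization, and a difference of 1 is a change by a factor of 2. A probe set was tested if its mean over the 15 arrays lay in the upper 50% of probe sets, and a difference was called at an adjusted p below 0.05 in limma. Of the 84 members, 69 were tested (82.1%, against 66.1% of all genes), and 15 were too dim. Of the 15 arrays, 4 were dim as deposited, with 2615 to 3042 probe sets above an intensity of 200 against 4882 to 9819 on the others: adult in vitro replicate 2, d26 in vitro replicates 2 and 3, and adult in vivo replicate 1. All 11 oocyte marker genes (among them Zp3, Gdf9, Mos and Nlrp5) lay above the filter level in every group, but 6 of them were lower in adult in vitro and 5 in adult in vivo MII than in GV oocytes, with none higher. Their summed level was 14.24 to 15.35 on the MII arrays, against 16.00 to 16.13 on the GV arrays, and so moved with the falls described here. The summed level of 10 leukocyte marker genes was 8.19 to 9.17 on the adult in vivo arrays, against 6.35 to 7.52 on the other MII arrays and 6.05 to 6.11 on the GV arrays, that of 7 oviduct epithelium marker genes was 7.39 to 8.95 on the adult in vivo arrays, against 5.01 to 7.08 on the other MII arrays and 6.67 to 6.74 on the GV arrays, and that of 11 cumulus and granulosa marker genes was 8.55 to 9.74 in MII against 7.57 to 7.62 in GV oocytes. Above the filter level were 8 of the 10 leukocyte markers in adult in vivo, 3 or 4 in the other MII and 2 in GV oocytes, 5 of the 7 oviduct markers in adult in vivo, 2 to 5 in the other MII and 4 in GV oocytes, and 6 to 9 of the 11 cumulus and granulosa markers in MII and 8 in GV oocytes. Their part in the results was not tested.

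**Figure D1:**
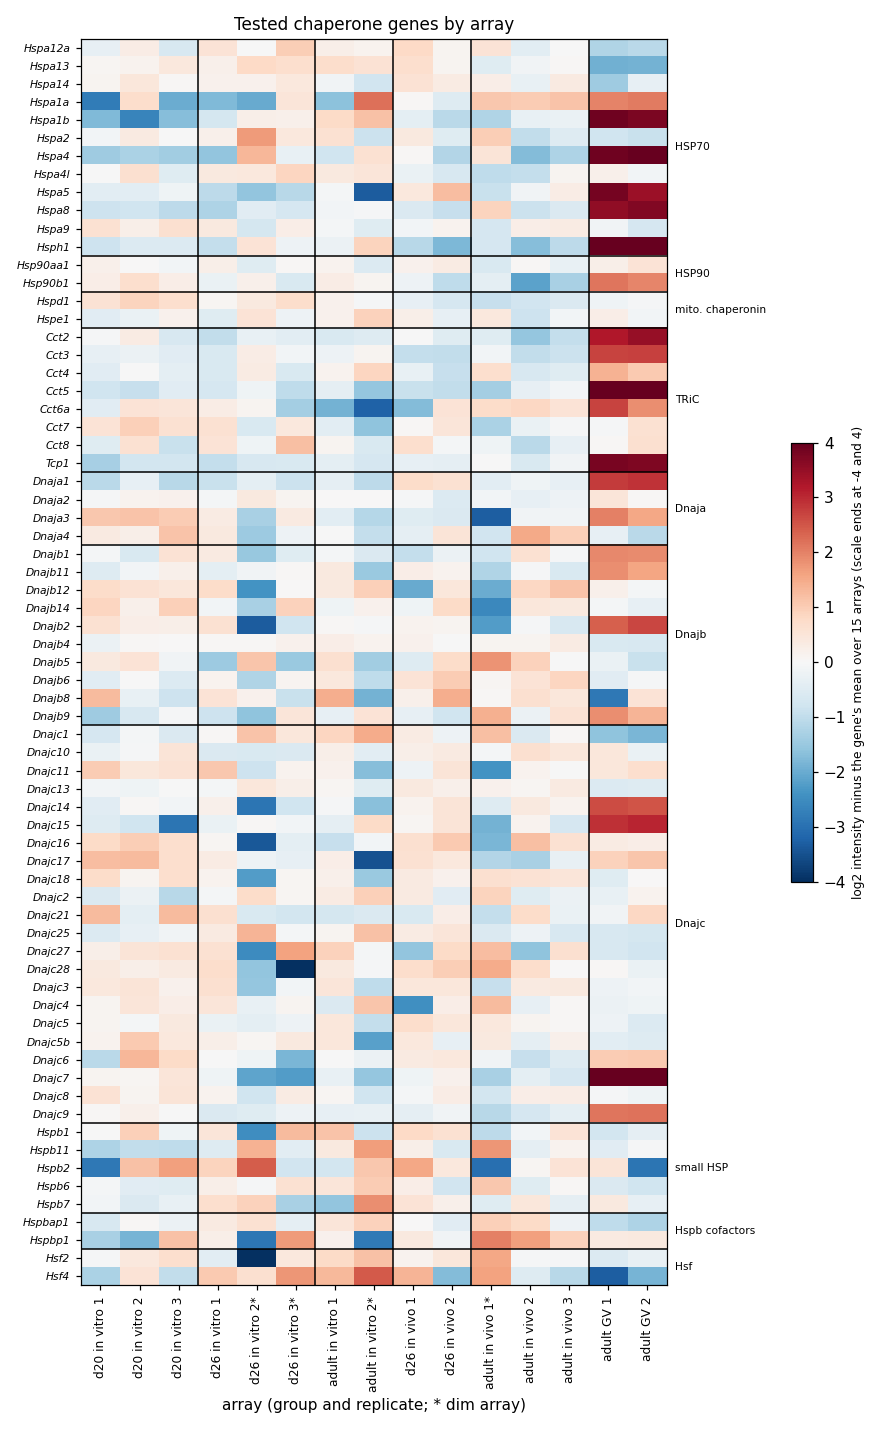
Level of each tested chaperone gene (rows, by family) on each of the 15 arrays (columns, by group), as its normalized log2 intensity minus the gene's mean over the arrays. The 2 GV arrays stand apart from the 13 MII arrays for 21 of 69 genes that are lower in MII (17% of all genes are) and for 8 that are higher (20.6% of all genes are).

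Adult MII oocytes held less of a set of core folding genes than GV oocytes, and the falls were large. Of the 69 tested members, 20 fell and 5 rose in oocytes matured in vitro (36.2%, against 31.3% of all genes called), and 20 fell and 6 rose in oocytes matured in vivo (37.7%, against 30.6% of all genes). Among all genes rises outnumbered falls: 18.4% rose and 12.9% fell in vitro, and 18.3% rose and 12.3% fell in vivo. The median difference of the members was -0.25 in vitro and -0.30 in vivo, beside 0.13 and 0.26 over all genes. Both comparisons use the same 2 GV arrays and are not independent. There were 18 members that fell in both and 4 that rose in both. Of the 12028 genes tested, 1173 fell in both and 1870 rose in both.

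The split by direction depended on the scaling between arrays. With values as deposited, 30 members fell and 0 rose in vitro and 22 fell and 0 rose in vivo, with the median of all genes at -1.95 and -0.98. All genes shifted the same way: 29.2% fell and 0.0499% rose in vitro, and 16.4% fell and 0.0915% rose in vivo. With median scaling 24 members fell and 3 rose in vitro (21.4% and 7.03% of all genes) and 24 fell and 1 rose in vivo (18.5% and 6.58%), with that median at -0.54 and -0.21. Relative to the median of all genes, all 25 called members in vitro and all 26 in vivo lay on the same side under those scalings as under quantile normalization. These members were chosen by their calls on the same arrays, which favours that outcome. Both scalings give the same values relative to that median, so they are not separate checks. The share over all called genes was not computed, and nothing particular to the members is read from this. The members' median lay 0.39 in vitro and 0.56 in vivo below that of all genes with quantile normalization, and 0.50 in vitro and 0.43 in vivo below it with each of the other scalings, which differ only by a constant per array.

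The HSP70 family carried some of the largest falls. Of its 12 tested genes, 5 fell in both comparisons (all genes 1173 of 12028): Hspa8, Hspa5, Hspa4, Hsph1 and Hspa1b. Hspa8, which encodes the constitutive cytosolic HSP70, had 9.77 and 9.84 in adult in vitro MII oocytes and 10.78, 9.03 and 9.31 in adult in vivo MII oocytes, against 13.44 and 13.58 in GV oocytes. The 13 MII arrays reached at most 10.78, so no MII array came near the GV level. The difference from GV was -3.71 ± 0.45 (SE, limma, adjusted p = 5.73e-05) in vitro and -3.80 ± 0.41 (adjusted p = 2.10e-05) in vivo.

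Hsph1 and Hspa4 encode large HSP70 relatives that act as exchange factors for HSP70. Hsph1 had 7.22 and 8.36 in adult in vitro MII oocytes and 6.81, 5.75 and 6.41 in adult in vivo MII oocytes, against 11.57 and 11.59 in GV oocytes. It fell by 3.79 (SE 0.52, adjusted p = 0.000143) in vitro and by 5.26 (SE 0.48, adjusted p = 6.70e-06) in vivo. Hspa4 had 6.48 and 7.88 in vitro and 7.78, 5.52 and 6.04 in vivo, against 11.18 and 11.77 in GV oocytes, with differences of -4.29 ± 0.85 (adjusted p = 0.00157) and -5.03 ± 0.77 (adjusted p = 0.00027). For both genes the MII and GV arrays did not overlap, and the MII arrays spread more widely than the GV arrays did.

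Hspa1b, a stress-inducible HSP70 gene, had 5.83 and 6.23 in adult in vitro MII oocytes and 3.88, 4.77 and 4.79 in adult in vivo MII oocytes, against 8.95 and 8.82 in GV oocytes. The differences were -2.86 ± 0.58 (adjusted p = 0.00201) in vitro and -4.41 ± 0.53 (adjusted p = 4.76e-05) in vivo. Its near-identical copy Hspa1a, read by 1 probe set, had 1.63 and 5.49 in vitro and 4.37, 4.31 and 4.43 in vivo, against 5.27 and 5.38 in GV oocytes, and did not pass the test (adjusted p = 0.376 and 0.644). Probes may not separate the copies, so which of them was read is uncertain.

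The same family also held genes that did not fall. Hspa13, an HSP70 relative of the microsomes, had 7.65 and 7.52 in adult in vitro MII oocytes and 6.47, 6.79 and 6.98 in adult in vivo MII oocytes, against 5.02 and 5.05 in GV oocytes. It was higher by 2.55 ± 0.39 (limma, adjusted p = 0.000262) in vitro and 1.72 ± 0.35 (adjusted p = 0.00216) in vivo. With values as deposited these were -0.16 and 0.02 and the calls ended. Of its 2 tested probe sets 1 was called, and the lower gave 0.58 in vitro and -0.02 in vivo. Hspa14, a ribosome-associated HSP70, had 2 tested probe sets. The dimmer was called higher in both comparisons, by 2.83 in vitro and 2.59 in vivo. On the probe set that stood for it, Hspa14 was higher in vivo by 0.97 ± 0.34 (limma, adjusted p = 0.0472) and not called in vitro (0.41 ± 0.37). Its GV values were 7.92 and 9.02, and without GV replicate 1 the in vivo difference was 0.43 (adjusted p = 0.56), and 1.55 (adjusted p = 0.0168) without GV replicate 2; the call also ended without any one of 9 other arrays, with adjusted p of 0.0548 to 0.134.

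Hspa9, the mitochondrial HSP70, Hspa2, known for its role in spermatogenesis, Hspa4l and Hspa12a were not called on the probe set that stood for them. Hspa9 had 11.24 and 10.83 in adult in vitro MII oocytes and 10.65, 11.58 and 11.64 in adult in vivo MII oocytes, against 11.19 and 10.66 in GV oocytes, so the groups overlapped. The difference was 0.11 ± 0.39 (adjusted p = 0.874) in vitro and 0.37 ± 0.35 (adjusted p = 0.517) in vivo.

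Chaperones of the endoplasmic reticulum went in different directions. They were grouped here by their known compartment, with no list fixed for it, so other members of this compartment are left out. Of those described in this group, 3 fell in both comparisons. Hspa5, also called BiP, is the HSP70 of that compartment, Hsp90b1 (GRP94) is its HSP90, and Dnajb11 is a J-domain partner of BiP. Hspa5 had 7.90 and 4.64 in adult in vitro MII oocytes and 7.06, 7.82 and 8.27 in adult in vivo MII oocytes, against 11.78 and 11.39 in GV oocytes, a difference of -5.32 ± 0.74 (adjusted p = 0.000142) in vitro and -3.87 ± 0.67 (adjusted p = 0.000638) in vivo. Every MII array lay below both GV arrays. The lowest value came from the dim adult in vitro replicate 2, and without it the in vitro difference was -3.64 (adjusted p = 0.000738).

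Hsp90b1 had 7.83 and 7.62 in adult in vitro MII oocytes and 7.14, 5.37 and 6.24 in adult in vivo MII oocytes, against 9.67 and 9.48 in GV oocytes. It fell by 3.33 (SE 0.46, adjusted p = 0.000134) in vivo and by 1.84 (SE 0.51, adjusted p = 0.0134) in vitro; the in vitro call ended without either GV replicate (adjusted p = 0.0818 and 0.0568) or the second adult in vitro array (0.0801). Dnajb11 fell by 2.29 (SE 0.56, adjusted p = 0.00618) in vitro and by 2.35 (SE 0.51, adjusted p = 0.00296) in vivo, and its in vitro call ended without adult in vitro replicate 2 (-1.35, adjusted p = 0.0988) or GV replicate 1 (0.0508). Dnajc1 and Hspa13, also of this compartment, were higher in both comparisons. Of further genes of this compartment, 2 are given here as examples, neither of them called on the probe set that stood for it. Dnajc3, which inhibits the kinase PERK, differed by -0.13 ± 0.61 in vitro and 0.09 ± 0.55 in vivo. Dnajc10, a disulfide reductase, differed by -0.19 ± 0.36 and 0.25 ± 0.33. Of the 5 tested probe sets of Dnajc3, 1 was called higher in vivo (range -1.20 to 1.41). Of the 3 tested probe sets of Dnajc10, 1 was called lower in vitro (range -3.68 to 1.02).

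The promoters of Hspa5 and Hsp90b1 are shown because genes of this compartment are known to share a control element, the endoplasmic reticulum stress element, searched on both strands as CCAAT and CCACG with 9 bases of any kind between them. The windows are the 250 bases before the gene's start, 5′ to 3′ on the gene's strand, from RefSeq (GRCm38.p6), chr2:34771840-34772089 on the plus strand for Hspa5 and chr10:86705445-86705694 on the minus strand for Hsp90b1. Capitals mark matches of the element on either strand.
Hspa5: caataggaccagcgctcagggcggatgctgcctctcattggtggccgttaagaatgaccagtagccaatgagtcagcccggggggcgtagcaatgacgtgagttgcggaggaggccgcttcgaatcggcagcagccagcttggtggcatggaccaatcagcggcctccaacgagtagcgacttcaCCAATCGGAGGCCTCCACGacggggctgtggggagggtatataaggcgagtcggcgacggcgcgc
Hsp90b1: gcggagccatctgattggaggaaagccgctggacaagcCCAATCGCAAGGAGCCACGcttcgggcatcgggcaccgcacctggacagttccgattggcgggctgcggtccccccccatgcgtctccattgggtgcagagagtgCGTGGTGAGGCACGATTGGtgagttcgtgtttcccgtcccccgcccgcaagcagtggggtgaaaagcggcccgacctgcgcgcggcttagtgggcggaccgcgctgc
The Hsp90b1 window held 2 matches, 1 on each strand, and the Hspa5 window 1. Of the 69 members with a promoter in the table, 3 held the element (Hspa5, Hsp90b1 and Dnajc3; 4.35%), against 0.13% of 27025 genes. Of the members with a promoter there that were tested, it was in 2 of 18 that fell in vivo (11.1%) and 1 of 39 others (2.56%).

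**Figure D2:**
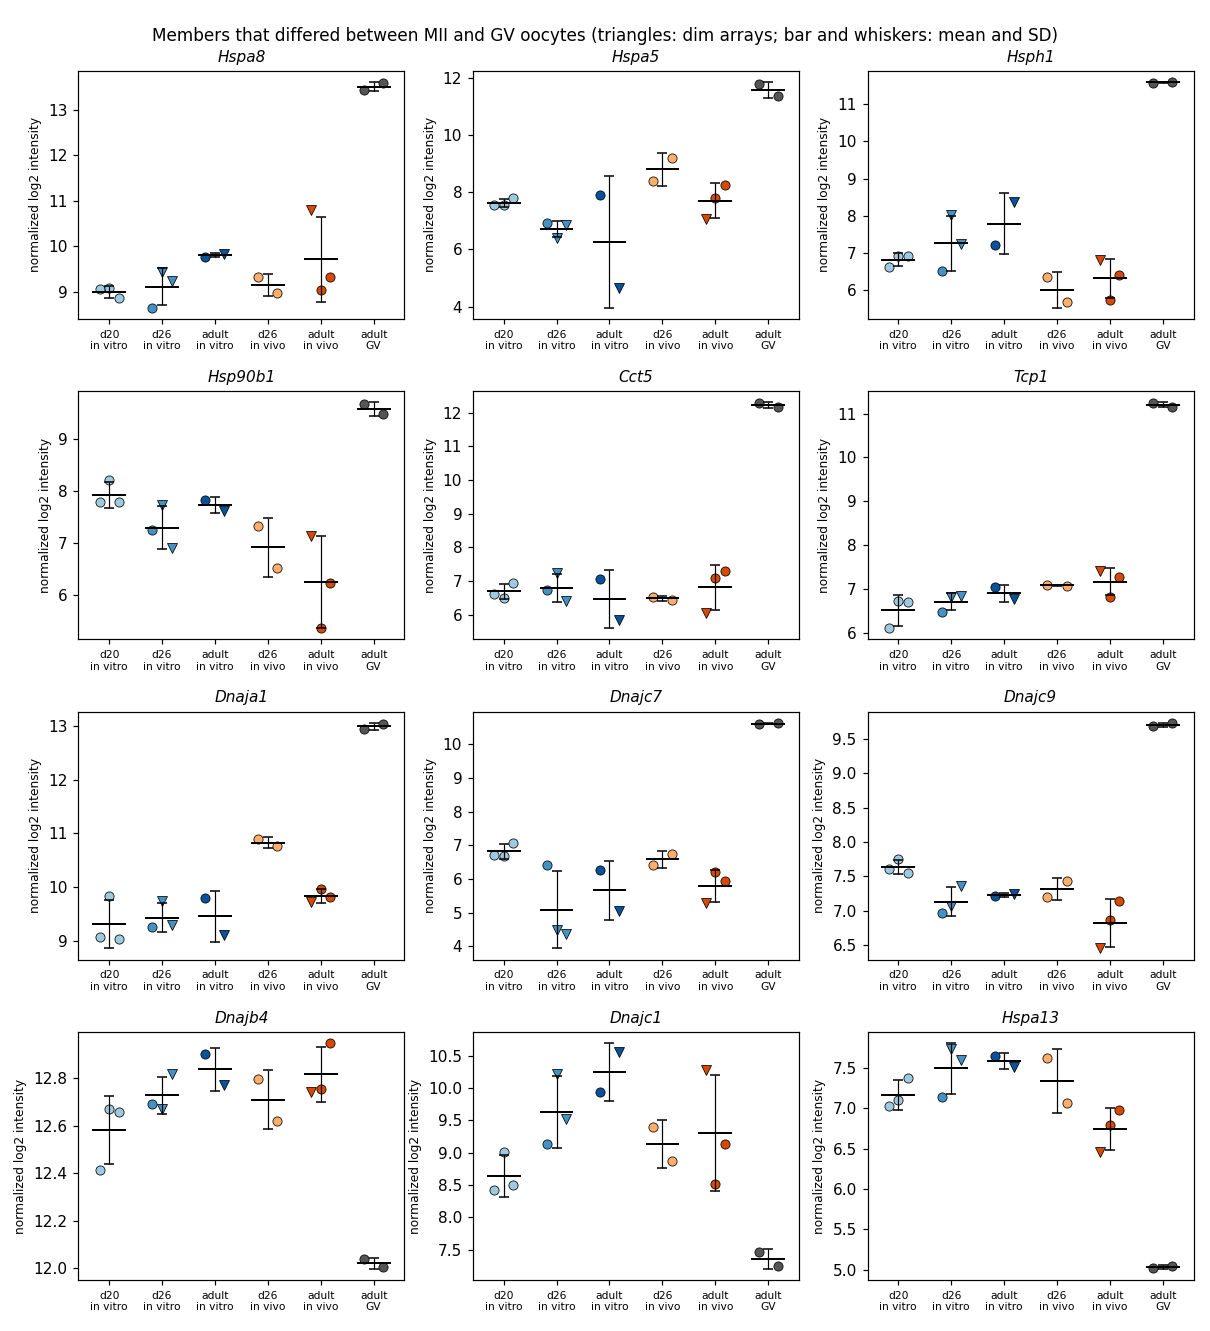
Normalized log2 intensity (vertical axis) of 12 members on every array, by group, with the mean and SD as bar and whiskers and triangles for the 4 dim arrays. In the upper panels the GV values, such as 13.44 and 13.58 for Hspa8, lie above all 13 MII arrays; in the lowest 3 panels (Dnajb4, Dnajc1 and Hspa13) they lie below them.

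The result for cytosolic HSP90 depended on the probe set. Hsp90aa1, the cytosolic HSP90 needed for protein kinases and steroid receptors, had 12.70 and 12.02 in adult in vitro MII oocytes and 11.97, 12.60 and 12.26 in adult in vivo MII oocytes, against 12.82 and 13.11 in GV oocytes. The difference on this probe set was -0.60 ± 0.28 (adjusted p = 0.137) in vitro and -0.69 ± 0.26 (adjusted p = 0.0625) in vivo, short of a call although adult MII and GV arrays did not overlap. Of its 3 other tested probe sets, 2 were called lower and 1, close to the filter level, was not called.

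The 8 tested subunit genes of TRiC, an 8-membered ring that folds actin and tubulin, all had lower mean levels in adult MII than in GV oocytes. In vitro 5 of them were called, Cct5, Cct6a, Tcp1, Cct2 and Cct3, and in vivo 5, Cct5, Cct2, Tcp1, Cct3 and Cct4. Of all genes 12.9% fell in vitro and 12.3% in vivo. None was called higher in either on the probe set that stood for it. Of the 7 tested probe sets of Cct4, 2 were called higher and 1 lower in vitro (-1.11 to 2.61). In vivo 1 was called higher and 2 lower (-2.91 to 2.10). The median difference over the 8 was -3.34 in vitro and -2.48 in vivo with quantile normalization, and it stayed below 0 and below the median of all genes under both other scalings.

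Cct5 had the largest fall among the tested members in both comparisons with quantile normalization of all arrays; in vivo Hsph1 fell further with values as deposited (-6.03, against -5.98 for Cct5) and with median scaling (-5.26, against -5.20), and so did Hspa4 (-5.58) and Hsph1 (-5.35) without the 4 dim arrays (Cct5 -4.78). It had 7.06 and 5.85 in adult in vitro MII oocytes and 6.04, 7.10 and 7.29 in adult in vivo MII oocytes, against 12.28 and 12.17 in GV oocytes. The difference was -5.77 ± 0.49 (adjusted p = 5.68e-06) in vitro and -5.42 ± 0.45 (adjusted p = 3.40e-06) in vivo, and no MII array of any age came above 7.29.

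Tcp1 encodes the alpha subunit. It had 7.04 and 6.77 in adult in vitro MII oocytes and 7.41, 6.82 and 7.29 in adult in vivo MII oocytes, against 11.24 and 11.16 in GV oocytes, a difference of -4.30 ± 0.37 (adjusted p = 5.61e-06) and -4.03 ± 0.33 (adjusted p = 3.40e-06). Cct2, the beta subunit, fell by 3.91 (SE 0.42, adjusted p = 2.17e-05) in vitro and by 4.33 (SE 0.38, adjusted p = 4.76e-06) in vivo. Cct3, the gamma subunit, fell by 2.76 (SE 0.34, adjusted p = 6.94e-05) and by 3.37 (SE 0.31, adjusted p = 7.59e-06).

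The remaining subunits moved less or less evenly. Cct4 fell by 1.37 in vivo (SE 0.42, adjusted p = 0.0241) and differed by -0.72 ± 0.46 in vitro (adjusted p = 0.283), and the in vivo call ended without adult in vivo replicate 2 (adjusted p = 0.0827) or 3 (0.0788) or GV replicate 1 (0.175) or 2 (0.08). Cct6a had 1.70 and 0.36 in adult in vitro MII oocytes and 4.33, 4.44 and 4.15 in adult in vivo MII oocytes, against 6.32 and 5.47 in GV oocytes. Only the in vitro fall of 4.86 was called (SE 0.93, limma, adjusted p = 0.00126, in vivo adjusted p = 0.2). Its size is uncertain, since the adult in vitro values lie below the filter level of 3.07 and the gene's mean was 3.60. Cct7 differed by -1.30 ± 0.52 in vitro and -0.80 ± 0.47 in vivo and Cct8 by -0.59 ± 0.53 and -0.87 ± 0.49, none called. Cct6b and Cct8l1, the remaining name matches, were too dim to test.

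Among J-domain proteins, which recruit HSP70 to its clients, most tested genes were not called. Of 36 tested Dnaj genes, 9 fell and 2 rose in vitro (all genes 12.9% and 18.4%), and 9 fell and 3 rose in vivo (12.3% and 18.3%). Dnaja1, a cytosolic partner of Hspa8, had 9.80 and 9.12 in adult in vitro MII oocytes and 9.72, 9.97 and 9.82 in adult in vivo MII oocytes, against 12.94 and 13.04 in GV oocytes. The difference was -3.53 ± 0.32 (adjusted p = 7.40e-06) in vitro and -3.15 ± 0.29 (adjusted p = 7.76e-06) in vivo, with no overlap between MII and GV arrays of any age.

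Dnaja2, a paralog, differed by only -0.25 ± 0.25 in vitro and -0.48 ± 0.22 in vivo (adjusted p = 0.504 and 0.139). It had 11.20 and 11.21 in adult in vitro MII oocytes and 11.09, 10.88 and 10.98 in adult in vivo MII oocytes, against 11.67 and 11.26 in GV oocytes. The difference between the paralogs was not tested. Dnaja3, the mitochondrial member, fell by 2.55 (SE 0.84, adjusted p = 0.0347) in vitro and by 2.96 (SE 0.77, adjusted p = 0.00979) in vivo. Its in vitro call ended without either adult in vitro or either GV replicate (adjusted p of 0.0609 to 0.186) and its in vivo call without GV replicate 1 (0.0841). Without adult in vivo replicate 1 the in vivo difference was -1.90 (adjusted p = 0.0115).

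Dnajb1, the heat-inducible partner of HSP70 known as HSP40, had 9.34 and 8.84 in adult in vitro MII oocytes and 8.64, 10.03 and 9.39 in adult in vivo MII oocytes, against 11.35 and 11.32 in GV oocytes. It fell by 2.24 (SE 0.57, adjusted p = 0.00797) in vitro and by 1.98 (SE 0.52, adjusted p = 0.00994) in vivo. The in vitro call ended without adult in vitro replicate 2 (adjusted p = 0.0697) and the in vivo call without GV replicate 1 (0.0685) or 2 (0.0686), with values as deposited (0.117) and with median scaling (0.0723). Dnajb2, which links HSP70 to ubiquitin, fell by 3.49 in vivo (SE 0.87, adjusted p = 0.00771; 0.0685 without GV replicate 2) and differed by -2.52 ± 0.96 in vitro (adjusted p = 0.0646).

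Dnajb4, a relative of Dnajb1, went the other way. It had 12.90 and 12.77 in adult in vitro MII oocytes and 12.74, 12.76 and 12.95 in adult in vivo MII oocytes, against 12.04 and 12.01 in GV oocytes. The rise was small and even on this probe set, 0.82 ± 0.18 (limma, adjusted p = 0.00309) in vitro and 0.79 ± 0.16 (adjusted p = 0.00201) in vivo. With values as deposited it was -0.15 and 0.36 and not called. Of the 3 tested probe sets of Dnajb4, 1 was called in each comparison, and the lowest gave -2.015 in vitro and -0.93 in vivo.

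In the Dnajc group, whose members share little beyond the J domain, Dnajc7 fell most among the tested genes, each read by its brightest probe set. Dnajc7, a cochaperone that binds both HSP70 and HSP90, had 6.28 and 5.05 in adult in vitro MII oocytes and 5.28, 6.20 and 5.93 in adult in vivo MII oocytes, against 10.60 and 10.63 in GV oocytes. The difference was -4.95 ± 0.63 (adjusted p = 8.11e-05) in vitro and -4.81 ± 0.58 (adjusted p = 4.40e-05) in vivo. Dnajc9, which also binds histones H3 and H4, fell by 2.48 (SE 0.35, adjusted p = 0.000151) and by 2.88 (SE 0.32, adjusted p = 2.36e-05).

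Dnajc14 and Dnajc15 fell in both comparisons but less firmly. Dnajc14 fell by 3.42 in vitro (SE 0.77, adjusted p = 0.00371; 0.0619 without adult in vitro replicate 2) and by 2.56 in vivo (SE 0.70, adjusted p = 0.0133; 0.0788 and 0.072 without GV replicate 1 or 2). Dnajc15, a mitochondrial protein, fell by 2.79 in vitro (SE 0.91, adjusted p = 0.0327; 0.132 to 0.162 without adult in vitro replicate 1 or either GV replicate) and by 3.79 in vivo (SE 0.83, adjusted p = 0.00327). Of the 3 tested probe sets of Dnajc17, 2 were called lower in vitro (range -4.70 to 1.53). On the probe set that stood for it, Dnajc17 fell by 2.62 in vitro (limma, adjusted p = 0.0403). This call rested on adult in vitro replicate 2 at 1.22. Without that array the call ended and the difference was -0.76, and without adult in vitro replicate 1 it was -4.52. That call also ended without any one of 7 other arrays, with adjusted p of 0.0531 to 0.17.

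Dnajc1, a J protein of the endoplasmic reticulum membrane, had the largest rise of the members called in both, on the probe set that stood for it. It had 9.93 and 10.56 in adult in vitro MII oocytes and 10.28, 8.51 and 9.14 in adult in vivo MII oocytes, against 7.47 and 7.25 in GV oocytes. The difference was 2.89 ± 0.50 (adjusted p = 0.000659) in vitro and 1.95 ± 0.46 (adjusted p = 0.00514; 0.0565 without GV replicate 2) in vivo, and 0.35 and 0.26 with values as deposited, where neither was called. Dnajc13, an endosomal protein, was higher in vivo by 0.74 ± 0.24 (adjusted p = 0.0342; 0.1 to 0.157 without adult in vivo replicate 3 or either GV replicate) and lower with values as deposited (-0.30).

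None of the 5 tested small heat shock protein genes was called. Hspb1, the best studied of them, had 7.00 and 5.01 in adult in vitro MII oocytes and 4.81, 5.76 and 6.41 in adult in vivo MII oocytes, against 5.15 and 5.52 in GV oocytes, and the groups overlapped. The mitochondrial chaperonin, formed by Hspd1 (HSP60) and its lid Hspe1 (HSP10), was not called either. Hspe1 differed by 0.47 ± 0.48 in vitro and -0.24 ± 0.44 in vivo, and Hspd1 by 0.18 ± 0.29 and -0.64 ± 0.27 (adjusted p = 0.716 and 0.0979).

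Hspbap1, a cofactor that binds a small heat shock protein, was higher by 1.84 ± 0.47 in vitro (adjusted p = 0.00828; 0.067 when adult in vitro replicate 2 was left out and 0.0638 when GV replicate 2 was) and by 1.63 ± 0.43 in vivo (adjusted p = 0.0101; 0.0511 and 0.0898 without GV replicate 1 or 2). With values as deposited both differences turned, to -1.11 and -0.35. Of the 3 tested probe sets of Hspbap1, 1 was called in each comparison, and the lowest gave -1.20 in vitro and -0.06 in vivo. Hsf4, a heat shock factor known from the lens, had low values: 4.53 and 5.68 in adult in vitro MII oocytes and 4.83, 2.72 and 2.12 in adult in vivo MII oocytes, against -0.09 and 1.37 in GV oocytes. The in vitro difference of 4.46 was called (SE 1.21, adjusted p = 0.0123; 0.103 without GV replicate 1), but its size is uncertain, since the GV values lie below the filter level and the gene's mean of 3.22 passed that level only narrowly and through the MII arrays. In vivo it was 2.58 (adjusted p = 0.104). Hsf2, a factor active in germ cells, was not called (adjusted p = 0.445 and 0.615).

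**Figure D3:**
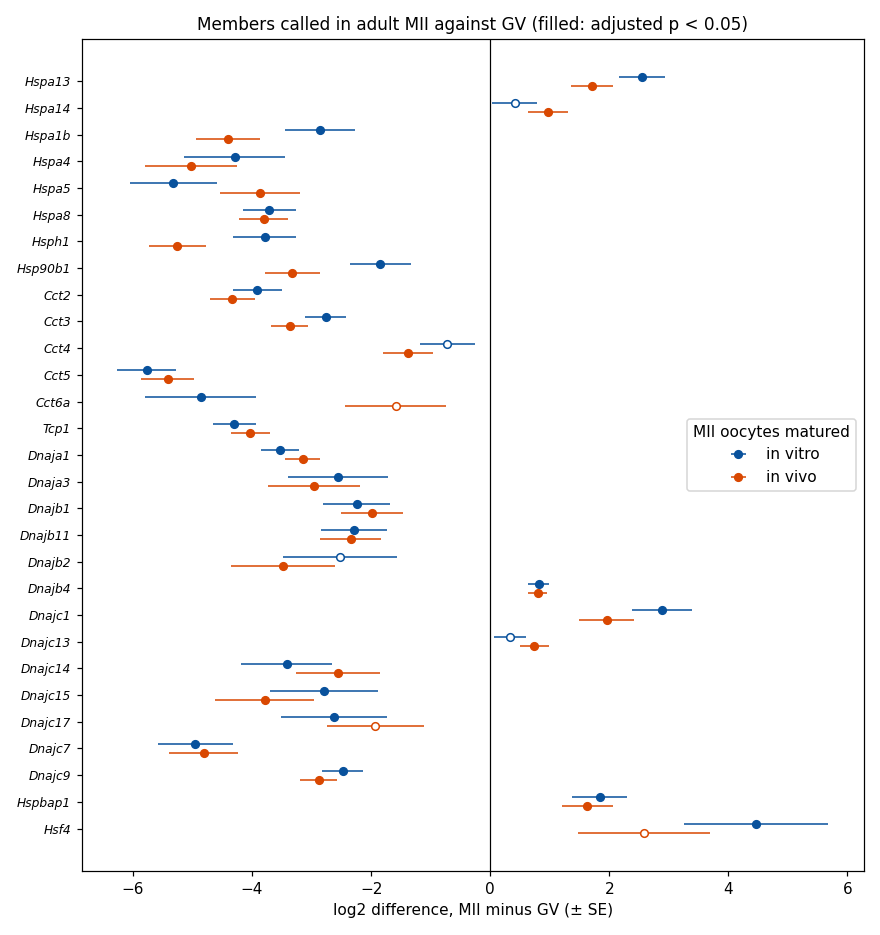
Difference from GV oocytes (horizontal axis, log2, with the SE as whisker) of each member called in at least 1 adult comparison, for oocytes matured in vitro and in vivo; filled points were called. The 18 members lower in both run down to -5.77 for Cct5, and the rises reach 2.89 for Dnajc1 and 4.46 for Hsf4.

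The d20 and d26 arrays entered the filter and the shared spread of those tests but not the differences from GV. For all 18 members called lower in both adult comparisons, all 8 arrays from d20 and d26 oocytes lay below both GV arrays, as they did for 98.6% of the 1173 genes called lower in both over the whole array. For all 4 members called higher in both they lay above them, as for 96% of 1870 such genes. Genes so called were chosen on the same 2 GV arrays, and nothing particular to the members is read from these counts. All 13 MII arrays lay below GV for 21 of the tested members (30.4%, against 17% of all genes) and above it for 8 (11.6%, against 20.6%). Over all tested members 23 (33.3%) had these 8 arrays below GV, against 19% of all genes, and 11 (15.9%) had them above, against 24.5% of all genes. Hspa8, for example, had 9.06, 9.08 and 8.85 in d20 in vitro, 8.65, 9.43 and 9.23 in d26 in vitro and 9.32 and 8.98 in d26 in vivo oocytes, against 13.44 and 13.58 in adult GV oocytes. No GV oocytes of the young mice were analysed here, so age and stage cannot be told apart in these values.

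Among the 15 members too dim to test, 2 had all 13 MII arrays below both GV arrays, Dnajc24 and Dnajc30. The share among all genes too dim to test was not computed, so nothing particular to the members is read from this count. Dnajc24, a J protein of diphthamide synthesis, reached at most 3.62 on the MII arrays, against 3.65 and 4.26 in GV oocytes. Dnajc30, a mitochondrial J protein, had 2.13 and 2.23 in adult in vitro MII oocytes and 1.37, 1.46 and 4.49 in adult in vivo MII oocytes, against 7.66 and 7.79 in GV oocytes; the highest of its MII values over all groups was 4.49. Both were singled out after their values were seen, and their means over the arrays left them below the filter level of 3.07. Hspa1l, a testis HSP70, Hspb8 and the others had GV values of at most 4.30.

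Probe sets of 1 gene did not always move together, and those that cover several transcripts can also read related sequences. In vivo, 4 members (Hspa4l, Cct4, Dnajb6 and Dnajc1) had probe sets called in opposite directions, and in vitro 4 (Hspa4l, Hspa8, Cct4 and Dnajc1). The share of all genes with such opposed probe sets was not computed, so nothing particular to the members is read from these counts. Of all tested probe sets, taken singly and in either direction, 26.8% were called in vivo and 27.7% in vitro. Hsp90aa1 gave -0.60 (adjusted p = 0.137), -1.39 (0.0052) and -4.07 (3.89e-05) in vitro on its 3 brightest probe sets, and -0.69 (0.0625), -1.10 (0.0129) and -4.89 (4.51e-06) in vivo, and the dimmest gave 0.40 in vitro and 0.95 in vivo (adjusted p = 0.85 and 0.602). Its fall was thus called on 2 of 4 tested probe sets but not on the one that stood for it.

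Hspa8 fell on 3 probe sets, by 3.71, 5.90 and 5.40 in vitro and by 3.80, 5.19 and 5.11 in vivo, and was higher on the fourth, by 4.48 (adjusted p = 0.0429) in vitro and 3.50 (0.0844) in vivo. Hspa9 was higher by 2.44 (adjusted p = 0.0291) in vitro and 2.78 (0.00883) in vivo on 1 of its probe sets and not called on the other 3 tested. Dnajb6, a J protein that keeps aggregates from forming, fell by 4.53 (adjusted p = 1.99e-05) in vitro and 4.29 (1.33e-05) in vivo on 1 probe set and was higher by 1.05 in vivo (0.0195) on another. Dnajc1 was higher by 2.89 and 1.95 on its brightest probe set but lower by 3.12 (adjusted p = 0.0125) and 3.87 (0.00175) on another, so its direction is that of the probe set chosen. Dnajc11, a mitochondrial protein, was not called on its brightest probe set but fell by 5.52 (adjusted p = 9.89e-06) in vitro and by 6.22 (2.21e-06) in vivo on the next. Hspa5 fell on 2 of 3 tested probe sets in both comparisons, Hsp90b1 on 1 of 2 and Hspa4 on 1 of 2. All 3 probe sets of Dnaja1 fell in both comparisons, by 2.44 to 3.76 in vitro and by 3.15 to 4.38 in vivo.

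**Figure D4:**
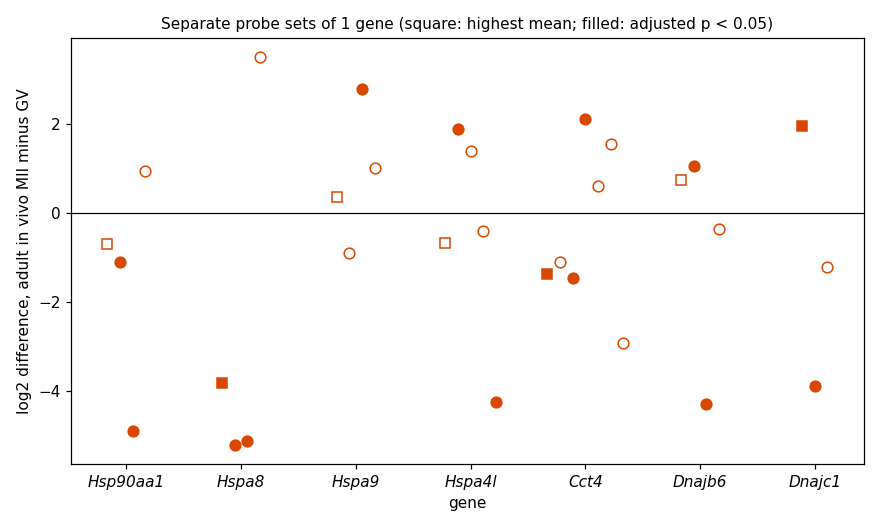
Difference between adult in vivo MII and GV oocytes (vertical axis, log2) of every tested probe set of 7 members (horizontal axis); the square is the probe set with the highest mean and filled symbols were called. Hspa4l, Cct4, Dnajb6 and Dnajc1 have filled symbols on both sides of 0, and Hsp90aa1 runs from -4.89 to 0.95.

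Oocytes matured in vitro and in vivo did not differ in any member by the test. In the mean over both ages 0 of 69 members were called (0.249% of all genes), in adults 0 (0% of all genes) and at d26 0 (0.0582% of all genes), all by limma; at an unadjusted p below 0.05 there were 15 in the mean over both ages (13.5% of all genes), 9 in adults (8.14%) and 13 at d26 (7.27%). The interaction of maturation with age gave 0 calls (0% of all genes) and 2 members at an unadjusted p below 0.05 (3.48% of all genes). Without adult in vitro replicate 1, which leaves a lone adult in vitro array assumed to vary like the other groups, 3 members were called in the mean over both ages (2.15% of all genes) and 1 in adults (1.9%).

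The member nearest to a call was Hspd1. It had 9.29, 9.61 and 9.93 in d26 in vitro and 9.39 and 9.18 in adult in vitro oocytes, against 8.88 and 8.54 in d26 in vivo and 8.31, 8.46 and 8.65 in adult in vivo oocytes. All 8 in vitro arrays, d20 included, lay at 9.18 to 10.10 and all 5 in vivo arrays at 8.31 to 8.88, so the groups did not overlap at either age. The mean difference was 0.86 ± 0.19 (limma, adjusted p = 0.102) with quantile normalization but -0.25 with values as deposited. For 0.923% of all genes every d26 and adult in vitro array lay above every d26 and adult in vivo array. That share leaves out d20 and pools the ages. The share of genes apart within each age was not computed. The 2 GV arrays lay at 9.05 and 9.17, between the groups. Hspe1, its partner, gave 0.35 ± 0.31 (adjusted p = 0.627).

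The promoter of Hspd1 is shown because this pair of genes shares 1 promoter region between them and holds a motif known from heat-inducible genes, the heat shock element in its form with 3 repeats, searched on both strands as GAA, TTC and GAA with 2 bases of any kind between neighbours. The window, 1 of 2 for this gene in the table, is chr1:55087933-55088182 on the minus strand (GRCm38.p6, RefSeq), the 250 bases before the start of Hspd1, 5′ to 3′, with matches on either strand, which overlap, in capitals.
Hspd1: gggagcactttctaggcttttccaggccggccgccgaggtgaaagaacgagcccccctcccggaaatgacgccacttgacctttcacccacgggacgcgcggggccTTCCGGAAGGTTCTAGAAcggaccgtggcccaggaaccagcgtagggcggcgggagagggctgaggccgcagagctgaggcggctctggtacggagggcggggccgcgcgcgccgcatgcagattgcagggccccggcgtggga
The window of Hspe1, chr1:55087898-55088147 on the plus strand, holds the same 2 matches. This form was held by 3 of the 69 members with a listed promoter (Hspd1, Hspe1 and Dnajb6; 4.35%), against 0.514% of 27025 genes, and by 0 of the 18 that fell in vivo.

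Dnaja1 and Hsph1 were next in order of p in the mean over both ages, and their directions were those of the probe sets that stood for them. Dnaja1 had 9.25, 9.75 and 9.30 in d26 in vitro and 9.80 and 9.12 in adult in vitro oocytes, against 10.90 and 10.76 in d26 in vivo and 9.72, 9.97 and 9.82 in adult in vivo oocytes. The groups were apart at d26 (-1.40 ± 0.29, adjusted p = 0.131) and overlapped in adults (-0.38 ± 0.29), with a mean of -0.89 ± 0.21 (adjusted p = 0.115; 0.0349 without adult in vitro replicate 1). Its 2 other probe sets had the opposite sign, with means of 1.26 and 0.66, neither called. Hsph1 had 6.53, 8.01 and 7.26 in d26 in vitro and 7.22 and 8.36 in adult in vitro oocytes, against 6.35 and 5.68 in d26 in vivo and 6.81, 5.75 and 6.41 in adult in vivo oocytes. Its in vitro arrays were above those in vivo at each age, with a mean of 1.36 ± 0.34 (adjusted p = 0.131; 0.0378 without adult in vitro replicate 1), while its dimmer probe set gave -0.37.

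Other members near the top of that list were Hspa5, at -1.77 ± 0.48 (adjusted p = 0.165), and Hspa4l, at 1.03 ± 0.29 (adjusted p = 0.19). Cct6a stood apart in adults, where 1.70 and 0.36 in vitro compare with 4.33, 4.44 and 4.15 in vivo (-3.27 ± 0.85, limma, adjusted p = 0.371). The adult in vitro values lie below the filter level of 3.07, so the size of this difference is uncertain. At d26 Cct6a did not stand apart, with 3.90, 3.72 and 2.25 in vitro and 1.86 and 4.14 in vivo. The interaction was -3.56 and not called (limma, adjusted p = 0.9999). Hsp90b1 was 1.48 ± 0.46 higher in vitro in adults (adjusted p = 0.462) and 0.38 ± 0.46 higher at d26 (adjusted p = 0.852).

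**Figure D5:**
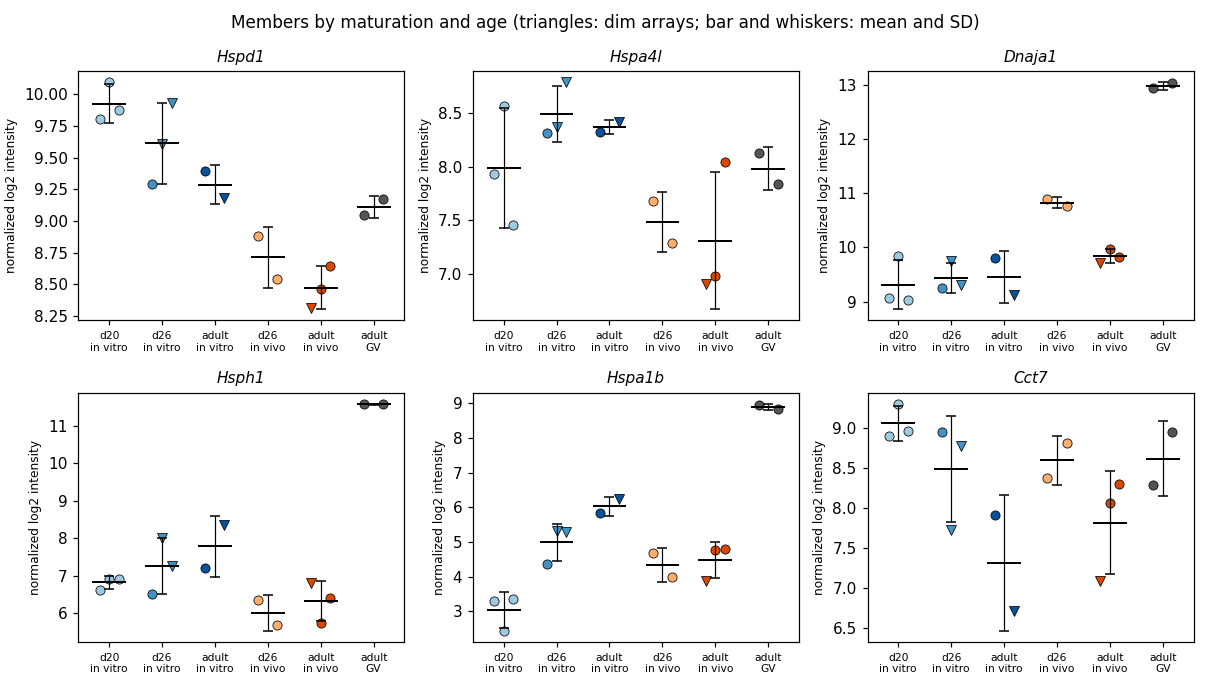
Normalized log2 intensity (vertical axis) of Hspd1, Hspa4l, Dnaja1, Hsph1, Hspa1b and Cct7 on every array, by group, with the mean and SD. Triangles mark dim arrays. These members were selected from those named for maturation and age. Others with a small p, such as Cct6a and Hspa5, are not shown. Hspd1 lies at 9.18 or above on all 8 in vitro arrays and at 8.88 or below on all 5 in vivo arrays, and Hspa1b is lowest in d20 oocytes.

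Age of the donor gave 0 called members in oocytes matured in vitro. Of the 69 members 0 were called between adult and d20 (0.0333% of all genes), adult and d26 (0%) or d26 and d20 (0%) by limma, while 14, 3 and 7 had an unadjusted p below 0.05 (all genes 19.2%, 7.36% and 12%). Between adult and d20 oocytes 5 members were called without adult in vitro replicate 1 (3.58% of all genes), 1 without d26 in vitro replicate 2 (0.191%) and 1 without adult in vivo replicate 1 (0.466%), and 2 without all 4 dim arrays (1.34%). Between adult and d26 oocytes 2 were called without adult in vitro replicate 1 (1.36%).

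Hspa1b had the smallest p among them. It had 3.31, 2.44 and 3.37 in d20, 4.38, 5.32 and 5.28 in d26 and 5.83 and 6.23 in adult oocytes matured in vitro, so the arrays of the 3 ages did not overlap. Adult minus d20 was 2.99 ± 0.53 (adjusted p = 0.0906), d26 minus d20 1.95 ± 0.48 (adjusted p = 0.348) and adult minus d26 1.04 ± 0.53 (adjusted p = 0.7). The first passed the threshold without the 4 dim arrays (adjusted p = 0.0216; this leaves 1 adult in vitro array, assumed to vary like the other groups), without adult in vitro replicate 1 (0.0232), without adult in vivo replicate 1 (0.0313) and without d26 in vitro replicate 2 (0.0484). The 2 dimmer probe sets of Hspa1b gave 0.76 and -0.76 for adult minus d20 (adjusted p = 0.783 and 0.746). The in vivo arrays had 4.69 and 3.98 at d26 and 3.88, 4.77 and 4.79 in adults, which overlapped.

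The promoters of Hspa1b and Dnaja1 are shown because both genes are known to answer to heat shock factor and both fell from high GV levels. Each window is the 250 bases before a start of the gene, 5′ to 3′ on the gene's strand (GRCm38.p6, RefSeq), chr17:34959239-34959488 on the minus strand for Hspa1b and chr4:40722218-40722467 on the plus strand for Dnaja1, 1 of 3 windows of that gene and the only one of them with a match, with the shorter form of the heat shock element, GAANNTTC, in capitals.
Hspa1b: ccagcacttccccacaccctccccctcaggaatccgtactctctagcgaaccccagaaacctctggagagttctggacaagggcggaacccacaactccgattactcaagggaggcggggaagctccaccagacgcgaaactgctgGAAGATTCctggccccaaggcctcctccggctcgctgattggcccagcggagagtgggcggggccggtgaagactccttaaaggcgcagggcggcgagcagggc
Dnaja1: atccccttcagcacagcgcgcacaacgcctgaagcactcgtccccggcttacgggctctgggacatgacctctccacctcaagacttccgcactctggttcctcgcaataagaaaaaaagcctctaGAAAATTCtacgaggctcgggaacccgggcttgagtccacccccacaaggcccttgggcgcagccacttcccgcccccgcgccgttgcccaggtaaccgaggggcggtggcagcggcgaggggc
The shorter form reads the same on both strands in its fixed letters and is contained in the longer form. Of the 69 members with a promoter 13 held it (18.8%), against 7.73% of 27025 genes, and so did 3 of 18 that fell in vivo (16.7%) and 8 of 39 other tested members (20.5%). The plain TATA box TATAAA was in 3 members (4.35%), against 14.3% of genes.

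Cct7 ran the other way with age. It had 8.90, 9.30 and 8.96 in d20, 8.95, 7.73 and 8.77 in d26 and 7.91 and 6.72 in adult oocytes matured in vitro, with adult minus d20 at -1.74 ± 0.47 (adjusted p = 0.15; 0.0394 without adult in vitro replicate 1). Dnajc1 differed by 1.61 ± 0.46 (adjusted p = 0.166) and Hspb11 by 2.10 ± 0.64 (adjusted p = 0.175) between adult and d20 oocytes. Dnajc7 had 6.71, 6.67 and 7.07 in d20 and 6.40, 4.48 and 4.37 in d26 oocytes, where the 2 low values are those of the dim arrays. Hsf2 likewise had 3.27, -0.51 and 4.10 in d26 oocytes matured in vitro, and its low value is that of dim replicate 2.

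Genes that work with these chaperones were taken from a list. Of 42 listed cochaperones, prefoldin subunits, phosducin-like proteins and endoplasmic reticulum folding factors 37 were tested; 13 fell and 4 rose in adult oocytes matured in vitro (all genes 12.9% and 18.4%), and 12 fell and 4 rose in those matured in vivo (12.3% and 18.3%), each against GV. Their median difference was -1.43 in vitro and -1.12 in vivo, and it was below that of all genes under the other 2 scalings too. Pfdn6, a subunit of prefoldin, which passes actin and tubulin to TRiC, fell by 5.24 (adjusted p = 0.00055) and by 6.21 (adjusted p = 8.05e-05). Sil1, the exchange factor of BiP, fell by 3.73 (adjusted p = 0.0111) and by 5.39 (adjusted p = 0.000518).

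Bag4, an exchange factor of HSP70, and Sgta, which guides tail-anchored proteins, also fell in both. Bag4 fell by 5.17 (adjusted p = 6.11e-06) in vitro and by 4.52 (adjusted p = 7.19e-06) in vivo, and Sgta by 3.32 (adjusted p = 0.0302) and by 4.75 (adjusted p = 0.00203). On the other side, Pdcl, a phosducin-like protein that assists TRiC, was higher by 2.24 (adjusted p = 0.00859) and 1.83 (adjusted p = 0.017), and Hyou1, an exchange factor and HSP70 relative of the endoplasmic reticulum, by 1.29 (adjusted p = 0.00701) and 1.04 (adjusted p = 0.0155). Sdf2l1, a partner of Dnajb11, was higher by 1.62 (adjusted p = 0.0375) and 1.47 (adjusted p = 0.0405), and Pfdn4 by 1.17 (adjusted p = 0.00934) and 0.82 (adjusted p = 0.0399). With values as deposited none of the 37 was called higher in either comparison.

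1 gene of that list was called between the maturation routes. Pdcl3, a phosducin-like cofactor of TRiC, averaged 9.09 in d26 and 9.26 in adult oocytes matured in vitro, against 10.75 and 10.25 in those matured in vivo. The mean difference was -1.32 ± 0.21 (adjusted p = 0.0182), while no TRiC subunit was called in that comparison.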

How the data were processed

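Affymetrix arrays of 15 oocyte pools in 6 groups were used. The deposited values are linear intensities, and the submitters' processing notes name MAS5 as the tool (version not given); the number of arrays limits the precision. Probe sets were named by the platform annotation with symbols updated through RefSeq. Intensities were taken to log2, quantile normalized, and probe sets in the upper 50% by mean (22519, above 3.07) were fitted with limma 3.58.1 (R 4.3.3; lmFit, then eBayes with an intensity trend), with 1 coefficient per group over all arrays (9 residual degrees of freedom), Benjamini-Hochberg adjustment within each comparison and a threshold of 0.05. The fit was tested on simulated data. One probe set per gene, the highest by mean, was counted, which left 12028 genes. Alternatives changed the scaling, filter, pseudocount, arrays in the fit and probe set choice, or left out arrays. The members and lists were chosen with earlier results of these data known. Text names the called members, up to 3 with the smallest p where fewer passed, fixed main family genes, members with opposed probe sets and up to 4 genes each way of the other pathway list; Dnajc3, Dnajc10, Dnajc11, Dnajc24, Dnajc30, Pdcl3, Hspb11 and the remaining called members were named after their values were seen.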

Additional observations from a re-analysis of the deposited data

How the results depend on the processing

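Of the falls against GV, 13 of 20 in vitro and 15 of 20 in vivo kept their call under each alternative in which the gene was tested. These were 22, or 21 for Cct6a in vitro and Dnajc15 in vivo. In both comparisons 12 kept it (Cct2, Cct3, Cct5, Dnaja1, Dnajc7, Dnajc9, Hspa1b, Hspa4, Hspa5, Hspa8, Hsph1 and Tcp1). Of the rises, 0 of 5 in vitro and 0 of 6 in vivo kept theirs. Values as deposited were among the alternatives, and there 0.0499% of all genes rose in vitro and 0.0915% in vivo, while 29.2% and 16.4% fell. Rises and falls thus had unequal chances of keeping a call, and the share kept over all genes was not computed. The number of members higher than in GV was 11 in vitro and 11 in vivo when any probe set of a gene could pass. It was 0 and 0 with values as deposited, and 3 and 1 with median scaling, with all-gene shares given above. For the any-probe-set rule the share of all genes was not computed, and none is set beside the next ranges, which count members only. Nothing particular to the members is read from them. Leaving out 1 array at a time gave 18 to 30 called members in vitro (3 to 7 higher, 15 to 23 lower) and 19 to 29 in vivo (3 to 7 higher, 16 to 23 lower); the count of 3 higher came without adult in vitro replicate 2 in vitro and without either GV replicate in vivo. It gave 0 to 5 between adult and d20, 0 to 2 between adult and d26, 0 to 1 between adult in vitro and in vivo, 0 to 3 in the mean over both ages, and 0 to 0 in the other 3 comparisons, with the highest counts all without adult in vitro replicate 1. Without the 4 dim arrays 2 were called between adult and d20. With values as deposited the difference turned for Hspbap1 (-1.11 in vitro, -0.35 in vivo), Hspa13 (-0.16) and Dnajb4 (-0.15) in vitro, Hspa14 (-0.44) and Dnajc13 (-0.30) in vivo, Dnajc1 between d26 and d20 (-0.65), and Hspd1 between in vitro and in vivo at d26 (-0.40) and over both ages (-0.25); without the 4 dim arrays it turned for the Dnajb2 interaction (-0.10). The cause was not tested. Among the falls, other settings than leaving out 1 array ended the calls of Dnajb1 in vivo (values as deposited and median scaling), of Cct4 and Dnaja3 in vivo and Dnajb11 and Dnajc17 in vitro (compared arrays alone), of Dnajc15 and Dnajc17 in vitro (no filter) and of Dnajc17 in vitro (without the dim arrays). Among the rises, median scaling ended those of Hspa13 and Hspbap1 in both comparisons and of Dnajc1, Dnajc13 and Hspa14 in vivo, and no filter or the compared arrays alone those of Dnajc13 and Hspa14. No paired analysis was possible because the replicate numbers were given in accession order and pair no samples. Leaving out 1 of 2 arrays of a group, or the 4 dim arrays, leaves a lone array that is assumed to vary like the other groups.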
